A study of Rattus norvegicus with 15 samples.

Results

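The genes described here encode the filaments, motors and anchors of the cytoskeleton: tubulins and their binding proteins, intermediate filaments, desmosomes, spectrins and ankyrins, actins with their crosslinkers, and the myosins and troponins of muscle and non-muscle cells. They were chosen by a pattern of gene names, with earlier results of these data known. The pattern takes these families from the 3 deposited tables, 1 for each pair of groups. The pattern found 99 of the 8621 genes in the tables, under 98 symbols because *Tuba1c* stands for 2 gene identifiers. The table of PCC vs. WT listed 86 of the 99 genes, that of HYP vs. WT 53 and that of PCC vs. HYP 41. Of the 99 genes, 16 appeared in all 3 tables, and 65 had a value in all 15 libraries.

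RNA-seq was performed on adrenal medulla of Sprague-Dawely rats (spelled as in the labels), with 5 animals in each of 3 groups. WT are wildtype rats aged 7 to 9.5 months, HYP are MENX rats aged 4 to 5 months with hyperplastic medulla, and PCC are MENX rats aged 7 to 9.5 months with pheochromocytoma, the tumor of the chromaffin cells. The study's methods divide these tumors into PCC and advanced PCC, but the labels do not say which is which, so each PCC mean and SD pools both stages. MENX rats carry a germline frameshift in *Cdkn1b*, the gene of the cell cycle inhibitor p27, in every cell. HYP and WT differed in age as well as in genotype, so for that comparison the effects of both cannot be told apart. PCC and HYP shared the genotype but differed in age as well as in stage, and there too the effects of both cannot be told apart.

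Microtubules are built from α- and β-tubulin, start from γ-tubulin complexes and are steadied or taken apart by associated proteins, many of which are typical of neurons. Chromaffin cells derive from the neural crest and share many of these proteins with sympathetic neurons, among them the intermediate filaments peripherin and α-internexin. Keratins and desmosomes are best known from epithelia, and the muscle-type actins and myosins from contractile cells such as those of vessel walls.

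Levels of a gene across libraries are given as CPM (counts per 1e6 counted reads, scaled between libraries), and levels of different genes are compared only as FPKM, which is also divided by gene length. Between 16315018 and 23831269 reads per library were counted on genes. A gene was called higher or lower when its adjusted *p* (edgeR quasi-likelihood test, Benjamini-Hochberg) was under 0.05. Each table holds only genes that the authors had already called on the same libraries, so neither a call nor a count of calls is independent evidence.

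The libraries differed in the levels of cell type markers. The summed CPM of 9 markers of the adrenal cortex ran from 28609 to 56621 in WT, from 12519 to 32447 in HYP and from 905 to 14435 in PCC. The sum of 12 chromaffin markers, *Th* and *Dbh* among them, ran from 1900 to 9589 in WT, from 10817 to 15031 in HYP and from 17993 to 38258 in PCC, so the labelled tissue was found in every library with cortex RNA beside it. WT replicate 5 stood apart with the lowest chromaffin sum, where the other 4 WT libraries held at least 5830. Sums were higher in the same order of groups for markers of mural cells (5 genes, 46.0 to 154, 272 to 370 and 1031 to 3837), fibroblasts (6 genes, 105 to 309, 271 to 416 and 619 to 949) and, with overlapping ranges of HYP and PCC, for 4 epithelial markers (1.27 to 3.70, 7.42 to 36.3 and 11.2 to 111). Markers of Schwann cells (8 genes, 69.4 to 229, 219 to 277 and 347 to 466) did so with overlap of WT and HYP. The single Schwann markers did not all follow their sum. In PCC vs. HYP 1 was higher and 2 lower of 4 tested (median log2 fold change −0.74), and in PCC vs. WT 6 were higher and 2 lower of 8. Endothelial markers (6 genes) were at 499 to 656, 326 to 433 and 214 to 392, and leukocytes (2 genes) at 33.3 to 38.0, 49.2 to 54.5 and 10.6 to 60.6. Each sum holds only markers with deposited values in all 15 libraries. The mural sum holds *Ndufa4l2*, which is also known as a hypoxia-responsive gene and so does not mark mural cells alone. Without it, in a sum of 4 genes chosen after seeing the data, the ranges were 36.0 to 67.1, 76.9 to 126 and 512 to 2283 CPM. In such bulk tissue, fewer cells of a type and less RNA per cell cannot be told apart. What part these shifts have in the results that follow was not tested.

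**Figure D1:**
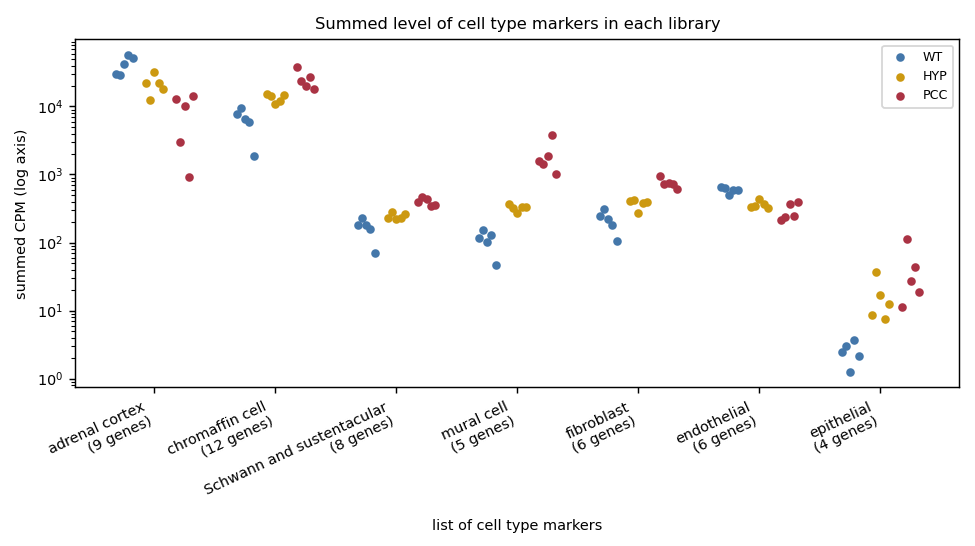
Summed CPM (log axis) of the cell type markers in each library, 1 point per library, for WT, HYP and PCC. Cortex markers stood lowest in PCC (905 to 14435) and chromaffin markers highest (17993 to 38258), and WT replicate 5 was the lowest library for the chromaffin markers (1900).

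In PCC vs. WT, 75 of the 86 listed members had enough reads to be tested, and 45 were higher in PCC, 20 lower and 10 not called. Among all genes tested in that table, 46.7% were called higher and 38.5% lower. The median log2 fold change of the members was 1.22, beside 0.44 for all genes tested. The values of PCC and WT libraries did not overlap for 46 of the 75 members, which is 61.3%, beside 65.7% of all genes tested. Of the members called, 69.2% were higher, beside 54.8% of all genes called. Both shares moved together with the processing: 61.7% beside 49.1% with DESeq2, 84.2% beside 68.9% with recovered library totals, 90.6% beside 76.3% when scaled to the listed counts' total and 82.1% beside 66.0% with limma on FPKM plus 1.

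In HYP vs. WT, 49 of 53 listed members were tested, and 29 were higher in HYP, 9 lower and 11 not called, beside 39.5% of all genes tested called higher and 32.5% lower. Their median log2 fold change was 1.14, while the median of all genes tested was −0.37. The groups did not overlap for 36 members, 73.5% of those tested, beside 56.3% of all genes. The share of higher genes was 76.3% among the members called and 54.8% among all genes called. When scaled to the listed counts' total it was 90% among the members, close to the 89.3% among all genes called. Both comparisons with WT use the same 5 WT libraries, and they called 29 members in common, 22 as higher and 7 as lower each time. How many of all genes were called alike in both was not counted, so this overlap cannot be called particular to the members.

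In PCC vs. HYP, 39 of 41 listed members were tested, and 16 were higher in PCC and 7 lower, beside 21.8% and 22.6% of all genes tested. The groups did not overlap for 27 members, 69.2%, beside 54.5% of all genes. The share of higher genes was 69.6% among the members called and 49.2% among all genes called. It was 58.1% beside 37.4% with DESeq2, 87.0% beside 70.7% with recovered library totals and 85.0% beside 68.4% with the total of the listed counts. These counts leaned on single libraries. Without HYP replicate 3 or 4 the higher calls numbered 8 and 9, and the lower calls numbered 0 without HYP replicate 4, 1 without HYP replicate 3, 2 without HYP replicate 2, PCC replicate 2 or PCC replicate 3, and 3 without HYP replicate 1 or 5. Another 24 members had values in all libraries without being listed for PCC vs. HYP. In an edgeR fit over all 15 libraries none of these was called, 2 had an unadjusted *p* under 0.05, and their log2 fold changes lay between −1.25 and 0.82. The authors had not called these genes for that pair on the same libraries, so the lack of calls was nearly fixed in advance. It is no evidence that their levels were equal in HYP and PCC.

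**Figure D2:**
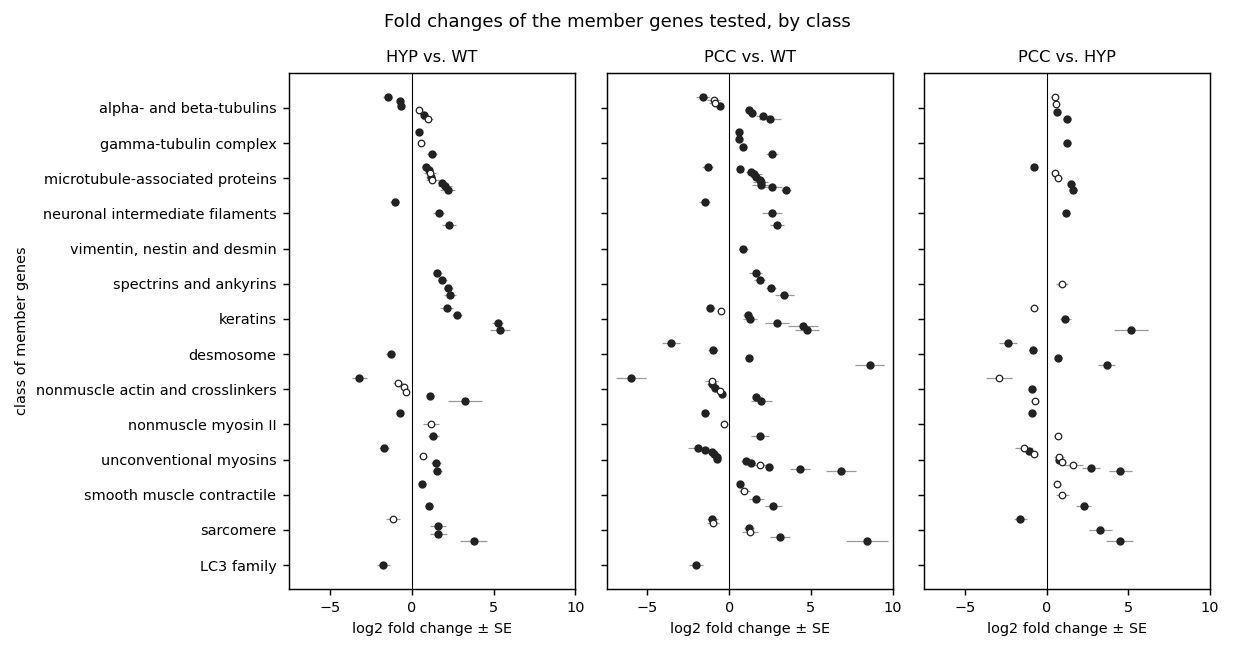
Log2 fold change (x axis, with SE) of each member gene tested in the 3 comparisons, grouped by class (y axis); filled points passed an adjusted *p* of 0.05 and open points did not. Spectrins and ankyrins lay on the higher side in both comparisons with WT, while unconventional myosins and desmosome genes lay on both sides, with *Pkp4* at 1.22 and *Dsp* at −3.55 in PCC vs. WT.

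Tubulins moved in both directions. Of 8 α- and β-tubulin genes tested in PCC vs. WT, 4 had risen and 2 had fallen, beside 46.7% and 38.5% of all genes tested. In HYP 1 of 6 tested against WT was higher and 3 were lower, beside 39.5% and 32.5% of all genes. With so few genes, these splits are not set apart from those shares. *Tuba1a*, the α-tubulin typical of young and growing neurons, stood at 122, 163, 119, 151 and 124 CPM in WT, at 213, 267, 184, 227 and 258 CPM in HYP and at 305, 551, 287, 371 and 285 CPM in PCC. No library of any group overlapped with another group's, and the log2 fold change was 0.75 ± 0.15 (SE) in HYP vs. WT (adjusted *p* = 0.0057) and 1.38 ± 0.22 in PCC vs. WT (adjusted *p* = 0.00094). The difference between PCC and HYP was 0.50 ± 0.21 (adjusted *p* = 0.23).

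*Tuba1b*, a widely used α-tubulin, went the other way in HYP. It stood at 320, 397, 414, 458 and 403 CPM in WT and at 269, 190, 223, 264 and 279 CPM in HYP, lower by a log2 fold change of −0.71 ± 0.16 (adjusted *p* = 0.011), a call that was lost under both scalings to a read total. In PCC it was back at 346 to 523 CPM. Within a library, the log2 ratio of *Tuba1a* to *Tuba1b* FPKM averaged −1.56 ± 0.21 (SD, n = 5) in WT, −0.10 ± 0.34 in HYP and −0.18 ± 0.47 in PCC. The ratio of every HYP and PCC library lay above every WT library, a shift of 1.47 in HYP and 1.38 in PCC (exact permutation test, two-sided, *p* = 0.0079, the smallest that 5 against 5 libraries can give, adjusted *p* = 0.025 over 25 ratio tests). These tubulin genes are near-identical in their coding parts, so how the authors' counting divided shared reads bears on the ratio.

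Among β-tubulins, *Tubb5* was higher in PCC than in WT (log2 fold change 1.21 ± 0.19), and in PCC vs. HYP *Tubb4a*, a neural β-tubulin, rose by 1.25 ± 0.23 on the log2 scale (adjusted *p* = 0.0099). *Tubb4a* stood at 15.0 to 23.8 CPM in WT except for 3.33 CPM in WT replicate 5, at 17.3 to 27.2 CPM in HYP and at 36.1 to 88.6 CPM in PCC. *Tubb3*, the β-tubulin used as a marker of neurons, was not among the higher genes. It stood at 151, 229, 127, 91.7 and 35 CPM in WT and at 41.7, 83.4, 66.7, 64.4 and 83.1 CPM in PCC, with a log2 fold change of −0.94 ± 0.41 (adjusted *p* = 0.11). WT replicate 5 was the lowest of all 10 libraries, and without it the value was −1.19 (adjusted *p* = 0.0085). *Tubb4b*, a widely used β-tubulin, was lower in HYP (−0.67 ± 0.18) and in PCC (−0.59 ± 0.17) than in WT.

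All 4 genes of the γ-tubulin complex tested were higher in PCC than in WT, beside 46.7% of all genes tested. In HYP vs. WT 2 of 3 tested were higher, beside 39.5% of all genes tested. *Tubg2*, the γ-tubulin more abundant in brain, was higher in HYP than in WT and higher again in PCC. It stood at 5.47, 7.48, 5.92, 4.15 and 1.70 CPM in WT, at 13.8, 9.61, 9.02, 12.8 and 12.6 CPM in HYP and at 29.4, 46.0, 23.6, 37.6 and 19.2 CPM in PCC. The 3 groups did not overlap, and the log2 fold change was 1.22 ± 0.31 in HYP vs. WT (0.051 as adjusted *p* without WT replicate 4) and 1.27 ± 0.24 in PCC vs. HYP. The complex proteins *Tubgcp4*, *Tubgcp5* and *Tubgcp6* changed by 0.59 to 0.87 in PCC vs. WT.

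The microtubule-associated proteins were the most uniform large class. Against WT, 9 of 10 tested in PCC were higher and 1, *Dclk2*, lower, beside 46.7% and 38.5% of all genes tested. Among 8 tested for HYP against WT, 6 were higher and none lower, beside 39.5% and 32.5% of all genes tested. The stathmins, small proteins that bind free tubulin and take microtubules apart, held the class's largest log2 fold change over WT among the genes tested, that of *Stmn4* in HYP and of *Stmn1* in PCC. *Stmn1*, which is also abundant in dividing cells, stood at 37.3, 38.1, 26.3, 23.1 and 19.5 CPM in WT, at 114, 140, 94.7, 87.2 and 90.2 CPM in HYP and at 293, 451, 286, 448 and 199 CPM in PCC. Each group lay wholly above the one before, with log2 fold changes of 1.86 ± 0.20 in HYP vs. WT (adjusted *p* = 0.00031), 1.52 ± 0.24 in PCC vs. HYP (adjusted *p* = 0.0056) and 3.50 ± 0.30 in PCC vs. WT.

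The neuronal stathmins took another course. *Stmn2*, which acts in growing axons, stood at 115, 115, 78.6, 58.7 and 14.9 CPM in WT, at 279, 454, 271, 247 and 309 CPM in HYP and at 278, 536, 230, 138 and 316 CPM in PCC. It was higher than WT in HYP (2.03 ± 0.41, adjusted *p* = 0.0068) and in PCC (1.93 ± 0.51, adjusted *p* = 0.013), while HYP and PCC overlapped, with a difference of −0.06 whose interval of 2 SE ran from −0.91 to 0.80 on the log2 scale. *Stmn4* behaved alike, with 2.18 ± 0.43 in HYP and 2.65 ± 0.55 in PCC vs. WT. For both genes WT replicate 5 was the lowest library, and without it the changes of *Stmn2* were 1.77 in HYP and 1.66 in PCC.

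Set against *Stmn1* within each library, *Stmn2* FPKM averaged a log2 ratio of 0.30 ± 0.19 (SD, n = 5) in HYP and −1.49 ± 0.90 in PCC, with no overlap. The shift was −1.79 (exact permutation test, two-sided, *p* = 0.0079, adjusted *p* = 0.025). *Stmn3* set against *Stmn1* shifted by −1.29 (exact permutation *p* = 0.016, adjusted *p* = 0.040) in PCC vs. HYP. In FPKM, *Stmn1* rose from a mean of 30.5 in WT to 125 in HYP and 423 in PCC.

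*Map1a* and *Map1b*, large proteins that stabilise microtubules in axons and dendrites, rose in HYP (1.03 ± 0.27 and 1.15 ± 0.27) and stood at 1.65 ± 0.30 and 1.32 ± 0.30 in PCC vs. WT. *Dclk1*, a doublecortin-like kinase that binds microtubules, was listed in both comparisons with PCC. It stood at 18.2, 20.4, 18.2, 31.3 and 29.1 CPM in WT, at 24.4, 28.4, 28.3, 20.5 and 26.2 CPM in HYP and at 86.7, 88.1, 108, 114 and 46.6 CPM in PCC, and PCC did not overlap with either group (1.89 ± 0.26 vs. WT, 1.64 ± 0.22 vs. HYP, adjusted *p* = 0.0027). Its relative *Dclk2* was lower in PCC than in WT (−1.32 ± 0.34) and HYP (−0.79 ± 0.16, adjusted *p* = 0.050 without HYP replicate 4). *Dcx*, doublecortin of migrating young neurons, stood at 1.83 to 13.6 CPM in WT, 14.9 to 23.4 CPM in HYP and 24.6 to 57.7 CPM in PCC, higher in PCC than in WT by 1.92 ± 0.45. *Map1lc3a*, which the name pattern also takes, encodes an autophagosome protein and not a structural one, and was lower in HYP (−1.74 ± 0.40) and PCC (−2.04 ± 0.43) than in WT.

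The other microtubule motors and regulators, a list of 43 genes outside the name pattern, pointed the same way as the associated proteins. In PCC vs. WT 27 of 28 tested were higher and 1 lower, beside 46.7% and 38.5% of all genes tested. The median log2 fold change was 1.43, beside 0.44 for all genes tested. For HYP the figures against WT were 20 higher and none lower of 24 tested, beside 39.5% and 32.5% of all genes tested. The median there was 0.92, beside −0.37 for all genes tested. The axonal kinesin heavy chains *Kif1a* (2.20 ± 0.32) and *Kif5a* (2.12 ± 0.33), the collapsin response mediator *Dpysl3* (3.02 ± 0.33) and the growth cone protein *Nav1* (3.09 ± 0.26) were higher in PCC than in WT. *Kif1b* was the exception, at −1.14 ± 0.24. In PCC vs. HYP 4 of 15 were higher and 1, the tubulin polymerisation protein *Tppp3* (−0.95 ± 0.19), lower. Among all genes tested in that comparison, 21.8% were higher and 22.6% lower.

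Of the neuronal intermediate filaments, 3 genes were listed, and they split. *Ina*, α-internexin, stood at 68.8, 85.6, 58.2, 46.7 and 14.9 CPM in WT, at 185, 206, 128, 155 and 176 CPM in HYP and at 414, 367, 389, 680 and 282 CPM in PCC. The 3 groups did not overlap, and the log2 fold changes were 1.63 ± 0.34 in HYP vs. WT, 2.91 ± 0.43 in PCC vs. WT and 1.17 ± 0.23 in PCC vs. HYP (adjusted *p* = 0.015, and 0.053 without HYP replicate 4). The start of *Ina* overlaps the start of *Nt5c2* on the other strand, and the library kit does not mark strand. *Nt5c2* ran from 80.3 to 137 CPM in WT and from 44.3 to 78.5 CPM in PCC.

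*Prph*, peripherin, stood at 129, 142, 83.1, 73.5 and 15.9 CPM in WT, at 499, 527, 303, 347 and 418 CPM in HYP and at 308, 1313, 448, 201 and 521 CPM in PCC. HYP and PCC lay above all WT libraries (2.25 ± 0.43 with adjusted *p* = 0.0050, and 2.61 ± 0.62 with adjusted *p* = 0.0076). They overlapped with each other, PCC replicate 2 being the highest and PCC replicate 4 the lowest, with a difference of 0.41 and an interval of 2 SE from −0.59 to 1.4. Without WT replicate 5 the change in PCC was 2.33, and without PCC replicate 2 it was 2.03. By FPKM, *Prph* exceeded *Ina* in all WT and HYP libraries and in 4 of 5 PCC libraries. The log2 ratio of *Ina* to *Prph* averaged −1.95 ± 0.32 (SD, n = 5) in WT and −2.67 ± 0.10 in HYP without overlap (exact permutation *p* = 0.0079, adjusted *p* = 0.025), and in PCC it ran from −3.22 in replicate 2 to 0.37 in replicate 4.

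*Nefh*, the heavy neurofilament chain of mature axons, was lower instead. It stood at 41.4, 44.0, 54.2, 56.1 and 81.7 CPM in WT, at 38.2, 20.3, 39.5, 21.4 and 17.6 CPM in HYP and at 29.3, 13, 16.0, 8.29 and 32.4 CPM in PCC. WT lay above both other groups, with −1.04 ± 0.28 in HYP (adjusted *p* = 0.027, up to 0.070 without HYP replicate 2, 4 or 5 in turn) and −1.51 ± 0.35 in PCC (adjusted *p* = 0.0071). In WT replicate 5, where *Ina* and *Prph* were lowest, *Nefh* was highest. *Vim*, vimentin of mesenchymal cells, was higher in PCC (89.8 to 166 CPM) than in WT (38.0 to 89.2 CPM) by 0.87 ± 0.26, with the adjusted *p* of 0.024 reaching 0.065 when WT replicate 3, WT replicate 4 or PCC replicate 3 was left out in turn. Its FPKM fell against that of *Prph* by 1.74 on the log2 scale (exact permutation *p* = 0.0079, adjusted *p* = 0.025).

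Spectrins and ankyrins, which form the lattice under the plasma membrane and hold ion channels in place, were higher than WT, all 4 listed genes of them, in both HYP and PCC. Of all genes tested, 39.5% were higher in HYP vs. WT and 46.7% in PCC vs. WT. *Ank2*, ankyrin-B, stood at 31.8, 49.4, 39.1, 35.5 and 16.7 CPM in WT, at 99.3, 240, 143, 138 and 193 CPM in HYP and at 207, 287, 238, 181 and 133 CPM in PCC. WT did not overlap with either group (2.24 ± 0.28 in HYP, adjusted *p* = 0.00069, and 2.56 ± 0.30 in PCC, adjusted *p* = 0.00022), and the difference between PCC and HYP was 0.36, with an interval of 2 SE from −0.21 to 0.93.

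*Ank3*, ankyrin-G of the axon initial segment, was higher by 1.86 ± 0.26 in HYP and 1.63 ± 0.40 in PCC. It stood at 131 to 219 CPM in all HYP libraries and at 151 to 196 CPM in 4 PCC libraries, but at 44.8 CPM in PCC replicate 4, inside the WT range of 18.2 to 57.2 CPM. *Sptbn4*, the βIV-spectrin of the same axon segment, showed the reverse in that library: 15.9, 30.5, 20.9 and 18.3 CPM in PCC replicates 1, 2, 3 and 5 and 74.6 CPM in replicate 4, against 0.882 to 5.32 CPM in WT and 9.58 to 17.6 CPM in HYP (2.31 ± 0.37 in HYP, 3.38 ± 0.56 in PCC, and 2.80 without PCC replicate 4). *Sptb*, the spectrin of red cells and neurons, was higher by 1.57 ± 0.29 in HYP and 1.87 ± 0.32 in PCC. The FPKM ratio of *Ank3* to *Ank2* was lower in PCC than in WT by 1.01 on the log2 scale (exact permutation *p* = 0.016, adjusted *p* = 0.040), which no longer passed in 8 of the 10 repeats with a library left out.

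**Figure D3:**
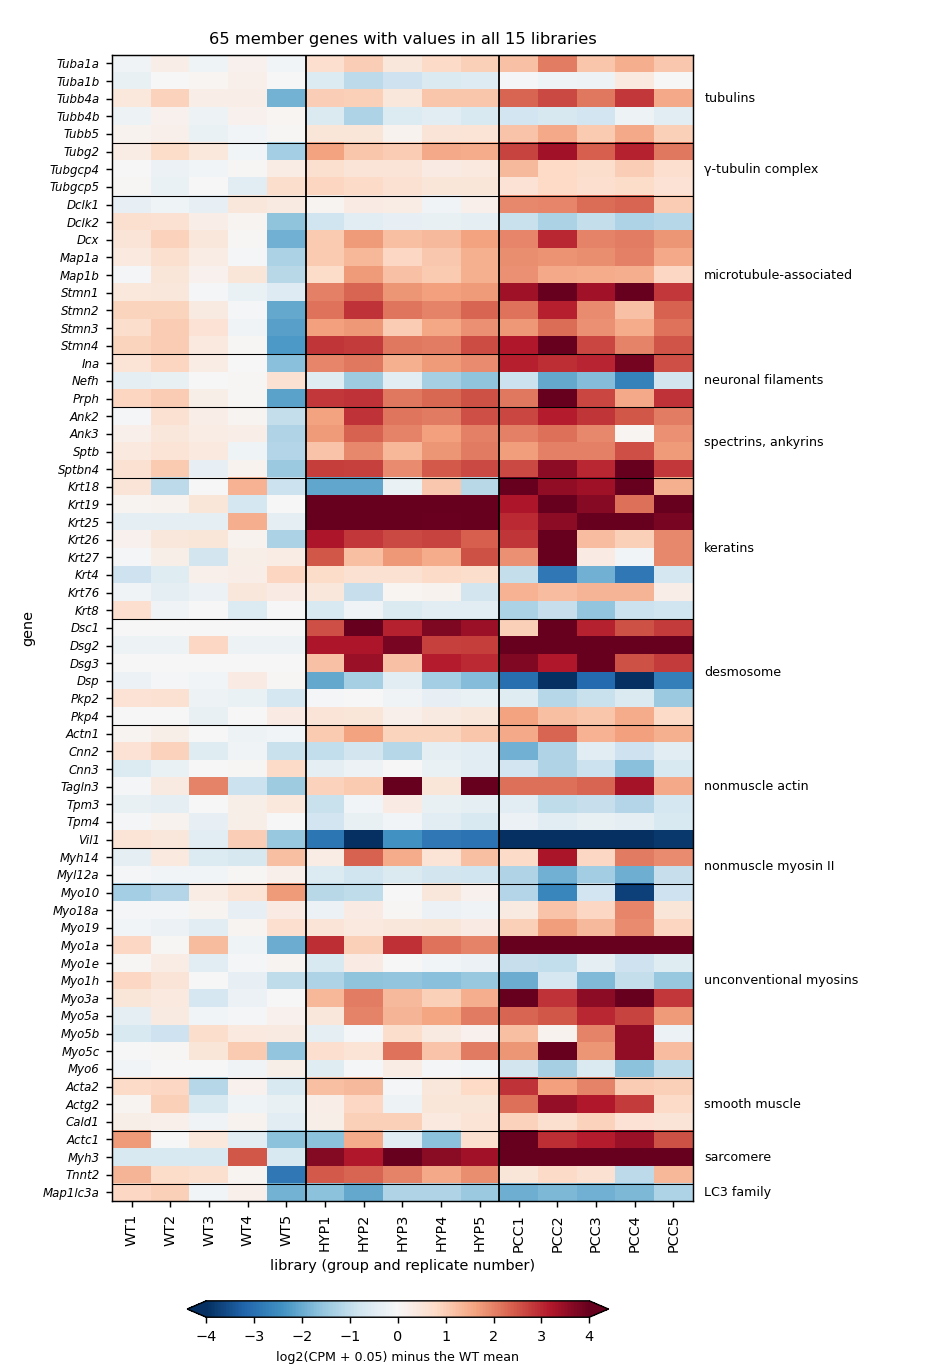
Log2(CPM + 0.05) minus the WT mean for the 65 members with values in all 15 libraries (rows, by class; columns, libraries by group), with colours capped at 4 in both directions. Most microtubule-associated, neuronal filament and spectrin rows stood above the WT mean in HYP and PCC, with *Dclk2* and *Nefh* below it, and WT replicate 5 was below the other WT libraries in many of them.

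Keratins were sparse, the highest group mean being 12.5 FPKM, of *Krt76* in PCC. Of 13 listed for PCC vs. WT only 7 had enough reads to be tested, 5 of them higher and 1 lower in PCC. Among all genes tested there, 46.7% were higher and 38.5% lower. All 4 tested in HYP vs. WT were higher in HYP, beside 39.5% of all genes tested. *Krt19*, a type I keratin of ducts and simple epithelia, stood at 0.152, 0.155, 0.211, 0.0638 and 0.136 CPM in WT, at 5.80, 4.86, 3.82, 6.74 and 8.10 CPM in HYP and at 1.71, 10.4, 2.30, 0.819 and 5.77 CPM in PCC. HYP and PCC lay above every WT library (5.26 ± 0.35 with adjusted *p* = 1.6e-05, and 4.76 ± 0.75 with adjusted *p* = 0.00087, or 4.12 without PCC replicate 2). PCC spread more widely than HYP and overlapped with it, the difference being −0.48 with an interval of 2 SE from −1.49 to 0.53. PCC replicate 2, the highest in *Krt19*, also had the highest epithelial marker sum (111 CPM).

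*Krt8* and *Krt18*, the partners that pair into the filaments of simple epithelia, changed in opposite directions in PCC vs. WT. Their FPKM levels came closer together, because *Krt18* was far below *Krt8* in WT. *Krt18* (Rn06 7:143629455-143633131, + strand) stood at 0.253, 0.0516, 0.159, 0.510 and 0.0679 CPM in WT, at 0, 0, 0.125, 0.393 and 0.0488 CPM in HYP and at 4.70, 2.44, 2.16, 14.7 and 0.513 CPM in PCC. PCC lay above both groups, with PCC replicate 5 barely above WT replicate 4, and the log2 fold change was 4.49 ± 0.91 vs. WT (adjusted *p* = 0.0034) and 5.18 ± 1.03 vs. HYP (adjusted *p* = 0.014, and 0.051 without HYP replicate 3). Without PCC replicate 4 the changes were 3.50 and 4.23, and without HYP replicate 4 that vs. HYP was 6.44. *Krt8* (Rn06 7:143596511-143603803, − strand) stood at 7.85, 4.44, 4.86, 3.32 and 4.96 CPM in WT and at 1.98, 2.54, 1.61, 2.70 and 2.82 CPM in PCC, lower by −1.15 ± 0.29 (adjusted *p* = 0.011), a call lost under both scalings to a read total and both limma fits. The log2 FPKM ratio of *Krt18* to *Krt8* averaged −4.15 ± 0.89 (SD, n = 5) in WT and −4.34 ± 0.89 in HYP but 0.13 ± 1.70 in PCC, which did not overlap with either (exact permutation *p* = 0.0079 for both, adjusted *p* = 0.025).

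*Krt25*, *Krt26* and *Krt27* are type I keratins of the hair root and lie side by side on the − strand of chromosome 10 (Rn06 10:87225343-87261717). All were higher in HYP than in WT. *Krt26* stood at 0.136 to 0.582 CPM in WT and at 4.19, 3.15, 2.76, 2.87 and 2.29 CPM in HYP (2.75 ± 0.32, adjusted *p* = 0.00040), and *Krt27* at 0.106 to 0.272 CPM in WT and 0.552 to 1.46 CPM in HYP (2.15 ± 0.40). *Krt25* had 2 reads in all WT libraries together and 111 in HYP, a ratio of 55.4 after scaling, with a 95% counting interval from 15.0 to 463. In PCC, replicate 2 was the highest of its group for *Krt26* (10.8 CPM) and *Krt27* (6.51 CPM), and PCC replicate 4 for *Krt25* (2.70 CPM).

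The 100 bases before the annotated start of each of these keratins are shown because *Krt25*, *Krt26* and *Krt27* rose together. Those of *Krt8* and *Krt18* are shown because these partners changed in opposite directions in PCC vs. WT. They are RefSeq sequences of the build GRCr8, where the windows are chr10:84771198-84771297, chr10:84787002-84787101 and chr10:84800132-84800231 on the − strand, chr7:135010340-135010439 on the − strand and chr7:135036068-135036167 on the + strand. Capitals mark TATAAA, the core of a TATA box, searched on both strands.
Krt25: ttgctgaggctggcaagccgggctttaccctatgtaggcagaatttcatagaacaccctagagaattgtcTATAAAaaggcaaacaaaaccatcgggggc
Krt26: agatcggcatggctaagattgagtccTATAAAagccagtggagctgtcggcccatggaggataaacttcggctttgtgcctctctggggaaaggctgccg
Krt27: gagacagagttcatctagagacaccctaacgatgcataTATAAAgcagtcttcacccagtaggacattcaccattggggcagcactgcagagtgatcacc
Krt8: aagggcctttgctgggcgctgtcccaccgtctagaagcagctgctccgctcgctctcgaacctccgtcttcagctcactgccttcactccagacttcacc
Krt18: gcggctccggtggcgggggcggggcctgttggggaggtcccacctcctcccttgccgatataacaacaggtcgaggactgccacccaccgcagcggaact

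The motif began 30 bases before the start of *Krt25*, 74 before that of *Krt26* and 62 before that of *Krt27*, and those letters were not found in the windows of *Krt8* and *Krt18*. It occurred in 6 of the 9 keratin members with an entry in the RefSeq table, of 13 keratin members in all, and in 5.78% of the 33469 promoters in the table. A match is a description of the sequence only.

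Desmosomes join neighbouring cells and anchor their filaments, and their parts moved in opposite directions. *Dsp*, desmoplakin, which links the junction to the filaments, was abundant in WT at 415, 468, 452, 618 and 507 CPM. It stood at 117, 195, 357, 190 and 146 CPM in HYP and at 59.7, 15.2, 56.7, 8.72 and 73.1 CPM in PCC. Each group lay wholly below the one before, with −1.30 ± 0.28 in HYP vs. WT (adjusted *p* = 0.0083), −3.55 ± 0.53 in PCC vs. WT (adjusted *p* = 0.00068) and −2.34 ± 0.56 in PCC vs. HYP (adjusted *p* = 0.028, up to 0.080 when PCC replicate 2, PCC replicate 3 or HYP replicate 2, 3 or 4 was left out in turn). The cortex marker sum was lowest in the libraries with the least *Dsp*, PCC replicates 4 and 2 (905 and 3037 CPM).

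*Dsg2*, desmoglein 2, a cadherin of the same junction, rose as *Dsp* fell. It had 1 read in all WT libraries together, in WT replicate 3, and stood at 0.494, 0.497, 0.752, 0.337 and 0.341 CPM in HYP and at 6.22, 3.92, 8.37, 14.5 and 1.62 CPM in PCC. The PCC libraries held 732 reads, a ratio to WT of 604 after scaling, with a 95% counting interval from 108 to 23875, and PCC exceeded HYP without overlap by 3.67 ± 0.54 on the log2 scale (adjusted *p* = 0.0039). *Dsc1* and *Dsg3*, desmosomal cadherins of skin, had no read in WT and averaged 0.534 and 0.271 CPM in HYP, at least 3.10-fold and 1.58-fold higher with 3 reads per library as the floor. The plaque proteins parted too, *Pkp4* being higher (1.22 ± 0.18) and *Pkp2* lower (−1.0 ± 0.32, not called in 5 of 10 repeats with a library left out) in PCC than in WT.

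In a list of 28 other junction proteins outside the name pattern, 10 of 11 tested were higher and none lower in HYP vs. WT. Of all genes tested there, 39.5% were higher and 32.5% lower. In PCC vs. WT 6 were higher and 3 lower of 11, beside 46.7% and 38.5% of all genes tested. With so few genes, the split in PCC is not set apart from those shares. *Epcam*, an epithelial adhesion protein, was higher in HYP (3.83 ± 0.56) and PCC (5.04 ± 0.72), and so were the classical cadherin *Cdh1* (1.66 ± 0.42 and 2.86 ± 0.81) and the desmosomal envoplakin *Evpl* (1.88 ± 0.18 and 1.76 ± 0.25). The neural catenins *Ctnna2* (2.09 ± 0.32) and *Ctnnd2* (2.83 ± 0.39) were higher and the epithelial catenin *Ctnna1* lower (−0.52 ± 0.17) in PCC vs. WT. *Epcam* and *Cdh1* are also among the epithelial markers.

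**Figure D4:**
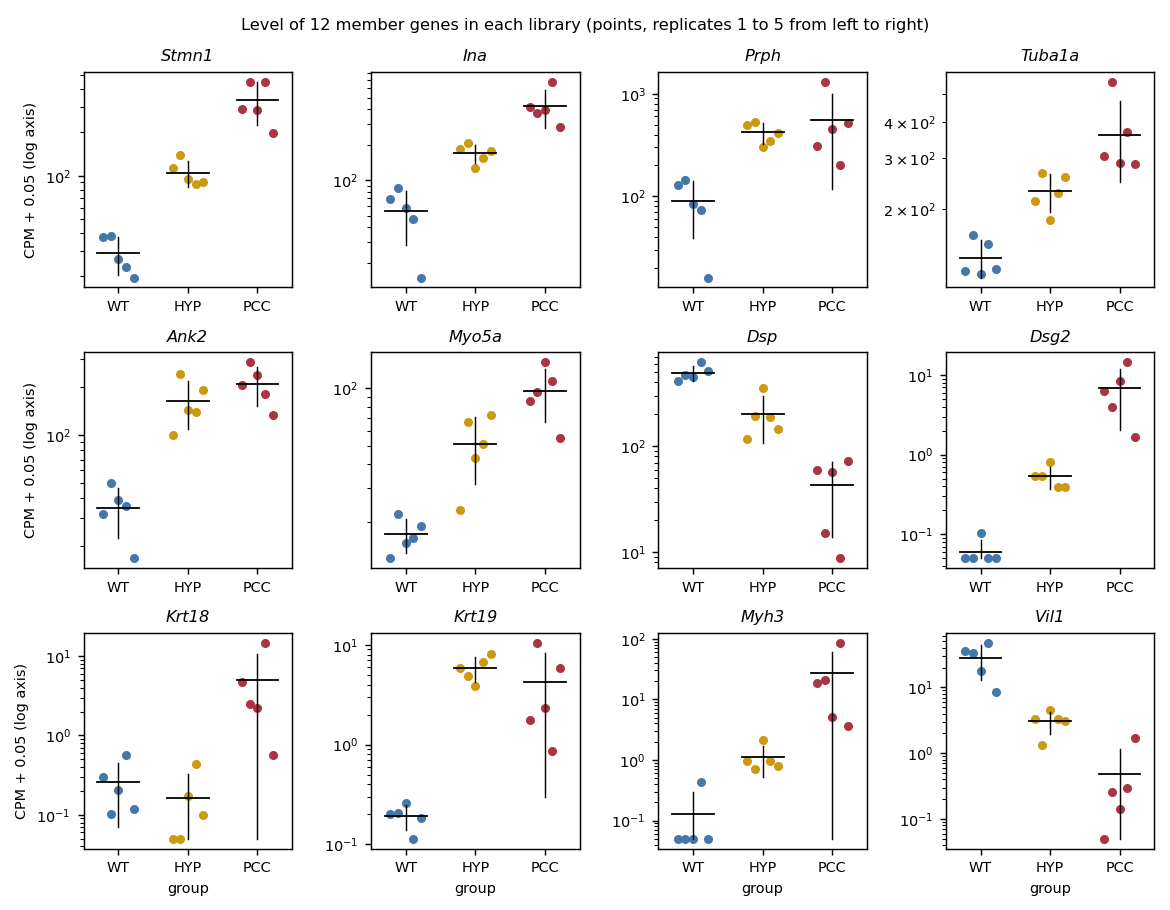
CPM plus 0.05 (log axis) of 12 members in each library; lines give the group mean and 1 SD, cut at 0.05 where the SD exceeds the mean. *Stmn1*, *Ina* and *Tuba1a* stood higher in HYP than in WT and higher again in PCC, without overlap, *Dsp* fell from 415 or more in WT to 73.1 or less in PCC, and *Prph* and *Krt19* overlapped between HYP and PCC.

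Non-muscle actin genes mostly fell or did not pass. Of 8 tested in PCC vs. WT, 2 were higher and 4 lower, beside 46.7% and 38.5% of all genes tested. *Vil1*, villin, the actin bundler of microvilli, stood at 35.7, 33.0, 17.8, 47.6 and 8.35 CPM in WT, at 3.21, 1.27, 4.51, 3.26 and 3.07 CPM in HYP and at 0, 0.203, 0.0920, 0.241 and 1.62 CPM in PCC. WT lay above both groups, with −3.20 ± 0.45 in HYP (adjusted *p* = 0.0011) and −6.02 ± 0.91 in PCC (adjusted *p* = 0.00070, and −7.72 without PCC replicate 5), and PCC replicate 5 lay inside the HYP range. The end of *Vil1* overlaps the end of *Usp37* on the other strand, which ran from 51.0 to 200 CPM in WT, from 41.6 to 81.4 CPM in HYP and from 38.8 to 48.9 CPM in PCC.

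*Actn1*, α-actinin of stress fibers and adhesions, was 1 of the 2 genes of the actin group that were higher in both HYP and PCC than in WT, beside the low *Tagln3*. It stood at 95.9, 104, 89.4, 77.1 and 82.0 CPM in WT, at 186, 269, 167, 167 and 191 CPM in HYP and at 254, 446, 233, 277 and 237 CPM in PCC, above WT by 1.12 ± 0.15 in HYP (adjusted *p* = 0.0011) and 1.66 ± 0.21 in PCC (adjusted *p* = 0.00032). *Actn4*, its close relative, ran from 328 to 834 CPM in WT and 287 to 395 CPM in PCC (−0.58 ± 0.26, adjusted *p* = 0.12), and the log2 FPKM ratio of *Actn1* to *Actn4* went from −2.51 ± 0.73 (SD, n = 5) in WT to −0.38 ± 0.54 in PCC without overlap (exact permutation *p* = 0.0079, adjusted *p* = 0.025). *Tpm3*, *Tpm4* and the calponin *Cnn3* were lower in PCC than in WT, by 0.44 to 1.07 on the log2 scale. *Actb*, β-actin, stood at 1130 to 1316 CPM in WT and 801 to 1109 CPM in HYP (−0.33 ± 0.14, adjusted *p* = 0.18), a difference that turned to 0.14 with the listed counts' total as scale.

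A list of 53 other actin regulators outside the name pattern was split as well, with 6 higher and 11 lower of 19 tested in PCC vs. WT. Among all genes tested there, 46.7% were higher and 38.5% lower. The focal adhesion proteins *Zyx* (−1.73 ± 0.23), *Vcl* (−1.01 ± 0.24) and *Pxn* (−0.73 ± 0.15) and the membrane linker *Ezr* (−2.65 ± 0.37) were lower. The neural talin *Tln2* (1.96 ± 0.27), the neural tropomodulin *Tmod2* (2.06 ± 0.32) and the formin *Diaph3* (3.34 ± 0.59) were higher.

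Among the myosins of non-muscle cells, *Myh10*, the IIB heavy chain that neurons use, ran from 50.3 to 269 CPM in WT and stood at 280, 555, 374, 385 and 467 CPM in HYP. The groups did not overlap (1.33 ± 0.35, adjusted *p* = 0.022, and 0.058 without WT replicate 4), and it was not listed in the comparisons with PCC. *Myl12a*, a regulatory light chain, fell stepwise from 212 to 266 CPM in WT to 132 to 156 CPM in HYP and 59.3 to 121 CPM in PCC (−0.70 ± 0.14 in HYP and −1.46 ± 0.21 in PCC, both vs. WT). The step from HYP to PCC (−0.87 ± 0.23, adjusted *p* = 0.040) was lost in 8 of 10 repeats with a library left out. *Myh9*, the IIA heavy chain, was below 1 CPM in every library listed and was not tested.

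The unconventional myosins, single motors for membranes and cargo, were divided, with 5 higher and 6 lower of 12 tested in PCC vs. WT. Among all genes tested there, 46.7% were higher and 38.5% lower, a division much like theirs. *Myo5a*, the myosin of secretory granules and melanosomes, stood at 12.9, 21.9, 15.6, 16.5 and 19.1 CPM in WT, at 23, 66.7, 43.3, 50.8 and 72.1 CPM in HYP and at 85.7, 95.0, 137, 110 and 55.3 CPM in PCC. WT lay below both groups (1.56 ± 0.28 in HYP, adjusted *p* = 0.0036, and 2.45 ± 0.25 in PCC, adjusted *p* = 0.00011), and HYP and PCC overlapped at PCC replicate 5. *Myo6*, the motor that walks towards the minus end of actin, was lower in PCC (21.8 to 45.7 CPM) than in WT (62.6 to 81.4 CPM) by −1.05 ± 0.20, and *Myo1c* (−0.72 ± 0.17) and *Myo1d* (−0.91 ± 0.26), which tether membranes, were lower too.

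The largest changes of the class were in myosins that are rare in WT. *Myo1a*, the brush border myosin, stood at 0.304, 0.155, 0.423, 0.128 and 0 CPM in WT, at 1.48, 0.331, 1.44, 0.843 and 0.732 CPM in HYP and at 9.68, 11.1, 21.4, 76.8 and 6.41 CPM in PCC (6.82 ± 0.91 vs. WT, adjusted *p* = 0.00040, and 4.51 ± 0.73 vs. HYP, adjusted *p* = 0.0062). Without PCC replicate 4 these changes were 5.79 and 3.51. *Myo1a* lies within the annotated span of *Rdh16* on the same strand, which fell from 205 to 275 CPM in WT to 7.09 to 48.7 CPM in PCC, and ends 4604 bases before *Tac3*. *Tac3*, the neurokinin B precursor, stood at 0 to 4.02 CPM in WT and at 538, 186, 449, 822 and 158 CPM in PCC, and PCC replicate 4 was the highest and replicate 5 the lowest library of PCC for both genes. Whether reads of these neighbours were counted on *Myo1a* was not tested. *Myo3a*, a myosin with a kinase domain known from hair cells of the ear, rose stepwise from 0.317 to 0.760 CPM in WT to 1.07 to 2.38 CPM in HYP and 14.2, 4.32, 6.94, 29.0 and 4.06 CPM in PCC (4.33 ± 0.62 vs. WT), and contains a small gene on the other strand within its span.

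Of the smooth muscle genes, 3 of 4 tested were higher in PCC than in WT, beside 46.7% of all genes tested. Both tested in HYP vs. WT were higher in HYP, beside 39.5% of all genes tested. In PCC vs. HYP 1 of 3 tested was higher, beside 21.8% of all genes tested, and the groups overlapped for all 3. *Acta2*, smooth muscle α-actin, stood at 34.3, 36.3, 9.15, 22.9 and 13.2 CPM in WT, at 46.6, 49.7, 19.0, 27.6 and 35.1 CPM in HYP and at 152, 63.5, 80.6, 41.0 and 39.4 CPM in PCC. PCC lay above WT (1.65 ± 0.46, adjusted *p* = 0.018) and overlapped with HYP (0.95 ± 0.40, adjusted *p* = 0.20). *Actg2*, the γ-actin of visceral smooth muscle, stood at 0.317 to 1.03 CPM in WT, at 0.439 to 0.939 CPM in HYP and at 2.54, 6.41, 5.06, 3.81 and 0.897 CPM in PCC (2.70 ± 0.54 vs. WT), with PCC replicate 5 inside the range of both other groups. *Myh11*, the smooth muscle myosin heavy chain, ran from 11.7 to 35.6 CPM in WT and from 25 to 64.9 CPM in PCC (0.93 ± 0.35, adjusted *p* = 0.069). *Mylk*, the kinase that starts smooth muscle contraction, was higher in HYP than in WT (1.06 ± 0.24, adjusted *p* = 0.012). The mural marker sum without *Ndufa4l2* was higher in PCC beside these genes, at 36.0 to 67.1 CPM in WT and 512 to 2283 CPM in PCC. PCC replicate 4, the highest of its group in that sum, was among the 2 lowest PCC libraries for *Acta2*, and the part of mural cells in these results was not tested.

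Genes of the striated sarcomere were mostly close to the detection limit. *Myh3*, the embryonic skeletal myosin heavy chain (Rn06 10:53621375-53645194, + strand), had 6 reads in WT, all in replicate 4, and stood at 0.925, 0.663, 2.07, 0.899 and 0.732 CPM in HYP and at 18.4, 20.9, 5.01, 85.8 and 3.63 CPM in PCC. The 3 groups did not overlap, and the ratio of reads was 15.1 in HYP vs. WT with a 95% counting interval from 6.70 to 42.4 and 383 in PCC vs. WT with an interval from 176 to 1044. PCC exceeded HYP by 4.47 ± 0.83 on the log2 scale (adjusted *p* = 0.011), and by 3.35 without PCC replicate 4. *Actc1*, cardiac actin, stood at 0 to 0.456 CPM in WT, at 0 to 0.387 CPM in HYP and at 2.44, 1.17, 1.33, 1.64 and 0.855 CPM in PCC (3.09 ± 0.62 vs. WT). *Tnnt2*, cardiac troponin T, was higher in HYP (9.5 to 18.1 CPM) than in WT (0.407 to 8.51 CPM) and lower again in PCC (1.54 to 8.16 CPM), with adjusted *p* of 0.044 and 0.028, and each of these calls was lost in 7 of 10 repeats with a library left out.

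The sarcomere genes tested in PCC vs. WT moved in both directions, 3 of 6 higher and 1 lower, beside 46.7% and 38.5% of all genes tested. *Actn2*, the α-actinin of the Z disc, was lower in PCC (−1.02 ± 0.35), and of 15 markers of striated muscle only the calcium store protein *Casq1* had values in all libraries, at 11.2 to 29.0 CPM in WT, 6.58 to 12.5 CPM in HYP and 5.39 to 8.33 CPM in PCC. Both striated markers tested in PCC vs. WT were lower.

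**Figure D5:**
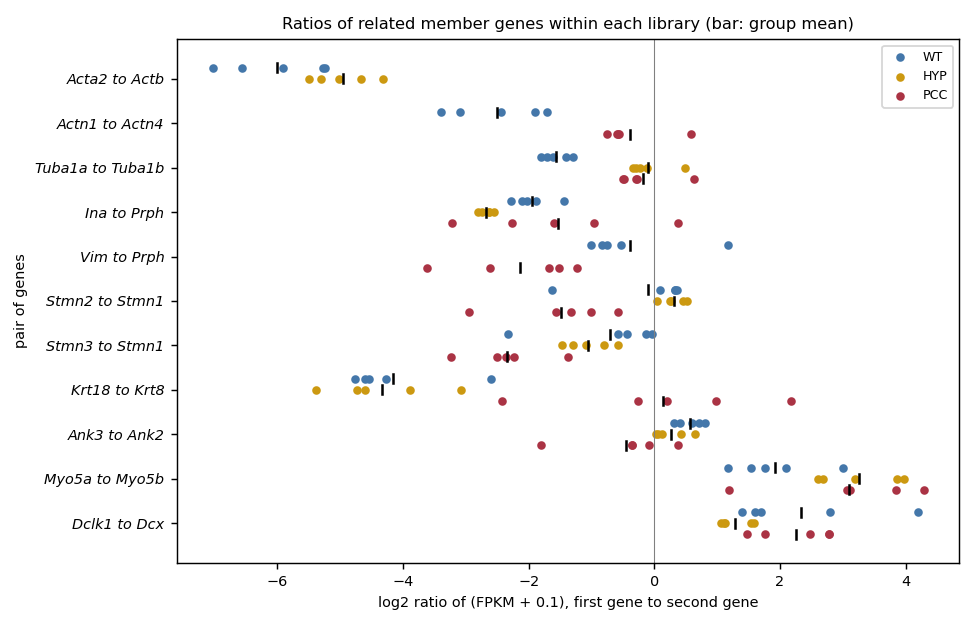
Log2 ratio of FPKM (plus 0.1) between related members within each library (points, by group) with the group mean as a bar. The 11 pairs are those in which both genes had deposited values in the libraries compared and averaged at least 1 FPKM. *Tuba1a* to *Tuba1b* stood at −1.81 to −1.29 in WT and at −0.51 or more in the other groups, and *Krt18* to *Krt8* rose in PCC to between −2.42 and 2.18.

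Ratios of related genes within a library hardly depend on how libraries are scaled. A pair was computed only where both genes had deposited values in all libraries compared and averaged at least 1 FPKM. Deposited values exist only for genes that the authors had called, so ratios that pass are not independent evidence. Of 27 pairs drawn up, 11 could be computed, and 12 of 25 tests passed at an adjusted *p* under 0.05: 6 of 10 in PCC vs. WT, 2 of 7 in HYP vs. WT and 4 of 8 in PCC vs. HYP. Without PCC replicate 4, none of the tests in PCC vs. WT and PCC vs. HYP passed. Without HYP replicate 1, 2, 4 or 5 or PCC replicate 1 or 3, 2 of those in PCC vs. HYP passed. With 4 against 5 libraries the smallest *p* of the exact test is larger than with 5 against 5. *Dclk1* to *Dcx* was higher in PCC than in HYP by 0.97 (exact permutation *p* = 0.024, adjusted *p* = 0.0496), and did not pass in 9 of 10 repeats. *Acta2* to *Actb*, which compares the actin of contractile cells with the common one, stood at −6.00 ± 0.79 (SD, n = 5) in WT and −4.96 ± 0.47 in HYP (exact permutation *p* = 0.048, adjusted *p* = 0.079).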

How the data were processed

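RNA-seq was performed on adrenal medulla of 15 rats, 5 per group, with groups taken from the labels. Per the labels, mRNA was captured with poly-T beads and made into libraries with the NEBNext Ultra kit by steps that do not mark strand, and per the study's methods reads were mapped to Rn06. The submitters' processing notes name HISAT2 2.0.5 and featureCounts 1.5.0-p3. The authors deposited raw read counts and FPKM for the genes they had called in each pair of groups. The deposited signal columns are counts divided by the authors' DESeq2 size factor and were used only for a scaling alternative. The authors' p-value columns were used only to recover how many genes they had tested (18790, 18057 and 17454), and their fold changes were not used.

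Counts were fitted for all genes of each table with edgeR 4.0.16 (TMM, filterByExpr, glmQLFTest) in R 4.3.3, and *p*-values were adjusted over all genes tested upstream, not only those listed, which gives upper bounds. Counts agreed between tables with 0 differences. On simulated data with 100 genes changed 4-fold, 79% (PCC against WT), 95% (HYP against WT) and 91% (PCC against HYP) were recovered, and with 2-fold changes 22%, 45% and 33%. The simulated tables held 7001, 4108 and 3148 genes and were adjusted over these alone. The real tables held far more called genes and a wider adjustment, so these shares do not carry over to the reported calls. CPM uses TMM over 5492 genes with values in all libraries, on library totals recovered from FPKM. Ratios used log2(FPKM + 0.1) for pairs with deposited values of both genes in the libraries compared, each averaging at least 1 FPKM. They were compared with two-sided exact permutation tests (scipy 1.17.1, Python 3.11.15). Intervals of read ratios cover counting error only.

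The members, lists and pairs were chosen with earlier results of these data known. Genes named are those of a written list, the called member of each class with the largest change in each direction (average of at least 1 CPM, no overlap) and the paired genes, and other genes given as examples were chosen after their values were seen. Alternatives were DESeq2 1.42.0, other scalings, filters and adjustments, limma 3.58.1 on FPKM, a replicate block and leaving out each library. Upstream sequence was matched by symbol for 82 of 98 symbols. The animals of different groups are different rats, and same-numbered libraries correlated between −0.17 and 0.28.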

Additional observations from a re-analysis of the deposited data

Results flagged for a closer look

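For the 45 named genes, 125 groups of 5 libraries were searched for a library far from the other 4, and 14 were found. Chance gives such a library in about 1 of 20 groups. Their causes were not tested.

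PCC replicate 4 was far above the other PCC libraries in *Myh3* (85.8 CPM, the others at 3.63 to 20.9), *Myo1a* (76.8 CPM, 6.41 to 21.4), *Myo5b* (55.0 CPM, 3.89 to 18.3), *Sptbn4* (74.6 CPM, 15.9 to 30.5) and *Tuba1b* (523 CPM, 346 to 395). PCC replicate 2 was far above them in *Prph* (1313 CPM, 201 to 521), *Dcx* (57.7 CPM, 24.6 to 29.8) and *Actn1* (446 CPM, 233 to 277). PCC replicate 5 held 1.62 CPM of *Vil1*, where the others had at most 0.241.

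In HYP, replicate 2 stood at 269 CPM of *Actn1* (the others at 167 to 191) and replicate 3 at 2.07 CPM of *Myh3* (0.663 to 0.925). In WT, replicate 5 stood at 18.2 CPM of *Ank3* (48.6 to 57.2). *Dsg2* in WT replicate 3 (0.0529 CPM) and *Myh3* in WT replicate 4 (0.383 CPM) were the only WT libraries with reads of those genes.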

How the results depend on the processing

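Counts of members called higher vs. WT stayed within 1.5 times of the reported values in all alternatives, those without a library included (40 to 45 in PCC and 20 to 33 in HYP). The lower calls of PCC vs. WT, 20 as reported, numbered 31 with DESeq2, 9 with recovered library totals, 5 with the total of the listed counts, and 10 and 11 with limma on FPKM plus 1 and plus 0.1. Those of HYP vs. WT numbered 4 with the total of the listed counts, beside 9. In PCC vs. HYP the higher calls, 16 as reported, numbered 9 with at least 10 counts in every library, 27 when adjusted over the listed genes only, and 8 to 17 without a library. The lower calls, 7 as reported, numbered 13 with DESeq2, 3 with either total, 12 when adjusted over the listed genes only, 4 in 1 fit over all libraries, and 0 to 7 without a library. Against TMM, the total of the listed counts shifted the median of all genes by 0.50 in PCC vs. WT, 0.46 in HYP vs. WT and 0.15 in PCC vs. HYP, and recovered totals by 0.29, 0.19 and 0.22. With a replicate block PCC vs. HYP gave 6 higher and 1 lower, and the other counts stayed within 1.5 times. Same-numbered libraries share only a number, and 4, 4 and 1 of 10 libraries correlated best with their own number in PCC and HYP against WT and in PCC against HYP. Ratio tests passing numbered 2 in PCC vs. HYP with at least 5 FPKM, and without a library 0 to 7 in PCC vs. WT and 0 to 4 in PCC vs. HYP. Values that changed sign were *Actb* in HYP vs. WT with the total of the listed counts (0.14), and among ratios none of which had passed, *Dclk1* to *Dcx* in PCC vs. WT (0.51 with FPKM plus 1, −0.32 to 0.38 without a library), *Myo5a* to *Myo5b* in PCC vs. HYP (0.12, and −0.46 to 0.32), *Ina* to *Prph* in PCC vs. WT (−0.0589 to 0.84) and *Tuba1a* to *Tuba1b* in PCC vs. HYP (−0.29 to 0.0604). Where an alternative tests other genes or fewer libraries its construction changes the count, and beyond that the cause was not tested.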
